A study of Mus musculus with 24 samples.

Results

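The proteasome genes described here are the rows of a mouse liver expression table whose Ensembl identifier carries, in the GENCODE M21 annotation of GRCm38, a protein-coding symbol that starts with Psm, then a letter from a to g, then a digit. The rule uses names only and no measured value. It found 49 of the 22392 genes in the table, from 50 such symbols in the annotation. Psmb11, the core subunit of the thymus, was not analysed here. A mean normalized count of at least 10 over all libraries was reached by 48 of the 49 genes, and 14040 genes of the table reached it in all. The remaining gene, Psmc3ip, shares the name pattern but encodes a recombination factor and no subunit. Its mean normalized count was 7.69 ± 1.99 in sham-injected, 8.56 ± 2.83 in tumour-bearing and 8.95 ± 2.70 in cholestyramine-fed tumour-bearing mice (SD, n = 8 each), and it was not tested.

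The samples were whole livers of CD2F1 mice, 8 in each of 3 groups. The group called CT was sham-injected and carried no tumour. The group called C26 received C26 cells, a transplantable mouse colon carcinoma line used as a model of cancer cachexia, and no drug. The group called C26-CHO received C26 cells and ate a diet with 2% cholestyramine by weight from day 1 to day 10 after the injection. Cholestyramine is a bile acid sequestrant, a resin that is not absorbed. The labels give no age, sex, batch or sequencing date, and tumour-free mice fed cholestyramine were not analysed here.

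Each library held 19.9 to 30.5 M counted reads, recovered from the steps between the deposited values. On the first principal component of all tested genes, which held 71.9% of the variance, the CT libraries lay between -83.2 and -75.4 and the C26 libraries between 28.8 and 54.6. In the C26-CHO group 7 libraries lay between 22.3 and 50.5, and C26-CHO 1 lay apart from them at -13.4. All 9 hepatocyte markers looked up, among them Alb, Ttr and Apoa1, passed the filter. The deposited values summed to 19.2 to 20.8 M per CT library and to 24.6 to 26.4 M per C26 library, so that a gene's normalized count and its share of a library are not interchangeable.

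The proteasome is the cell's main protease for ubiquitin-tagged proteins. Its barrel-shaped core is a stack of rings of alpha subunits, which gate the entrance, and of beta subunits, of which Psmb5, Psmb6 and Psmb7 cut peptide bonds. A regulatory cap made of Psmc ATPases and Psmd subunits binds ubiquitin chains, strips them off and unfolds the protein. In immune cells and under interferon gamma, Psmb8, Psmb9 and Psmb10 take the places of Psmb5, Psmb6 and Psmb7 and form the immunoproteasome, which changes the peptides cut for display on class I molecules. In liver the proteasome removes damaged and short-lived proteins beside autophagy. In bulk tissue, fewer cells of a type and less RNA per cell cannot be told apart.

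The tumour-bearing livers held less mRNA for many proteasome genes and more for a pair of lid subunits. In C26 against CT, 27 of the 48 tested members were lower and 2 were higher at an adjusted p under 0.05 in limma, a linear-model test fitted to log2(normalized count + 1) over all genes. Of all 14040 genes tested, 32.9% were lower and 33.3% were higher in the same comparison. The members' median log2 fold change was -0.16, beside 0.01 for all tested genes, and their range ran from -0.86 for Psme1 to 0.37 for Psmd7. The groups did not overlap in 17 members. The share of all tested genes without overlap was not determined, so this count has no background beside it. Summed over all 49 members, the normalized counts were 59091 ± 1995 in CT, 52385 ± 1777 in C26 and 55052 ± 3820 in C26-CHO (SD, n = 8 each). As a share of all normalized counts of a library, that sum was 0.296% ± 0.00668 in CT, 0.207% ± 0.00760 in C26 and 0.224% ± 0.0254 in C26-CHO.

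**Figure D1:**
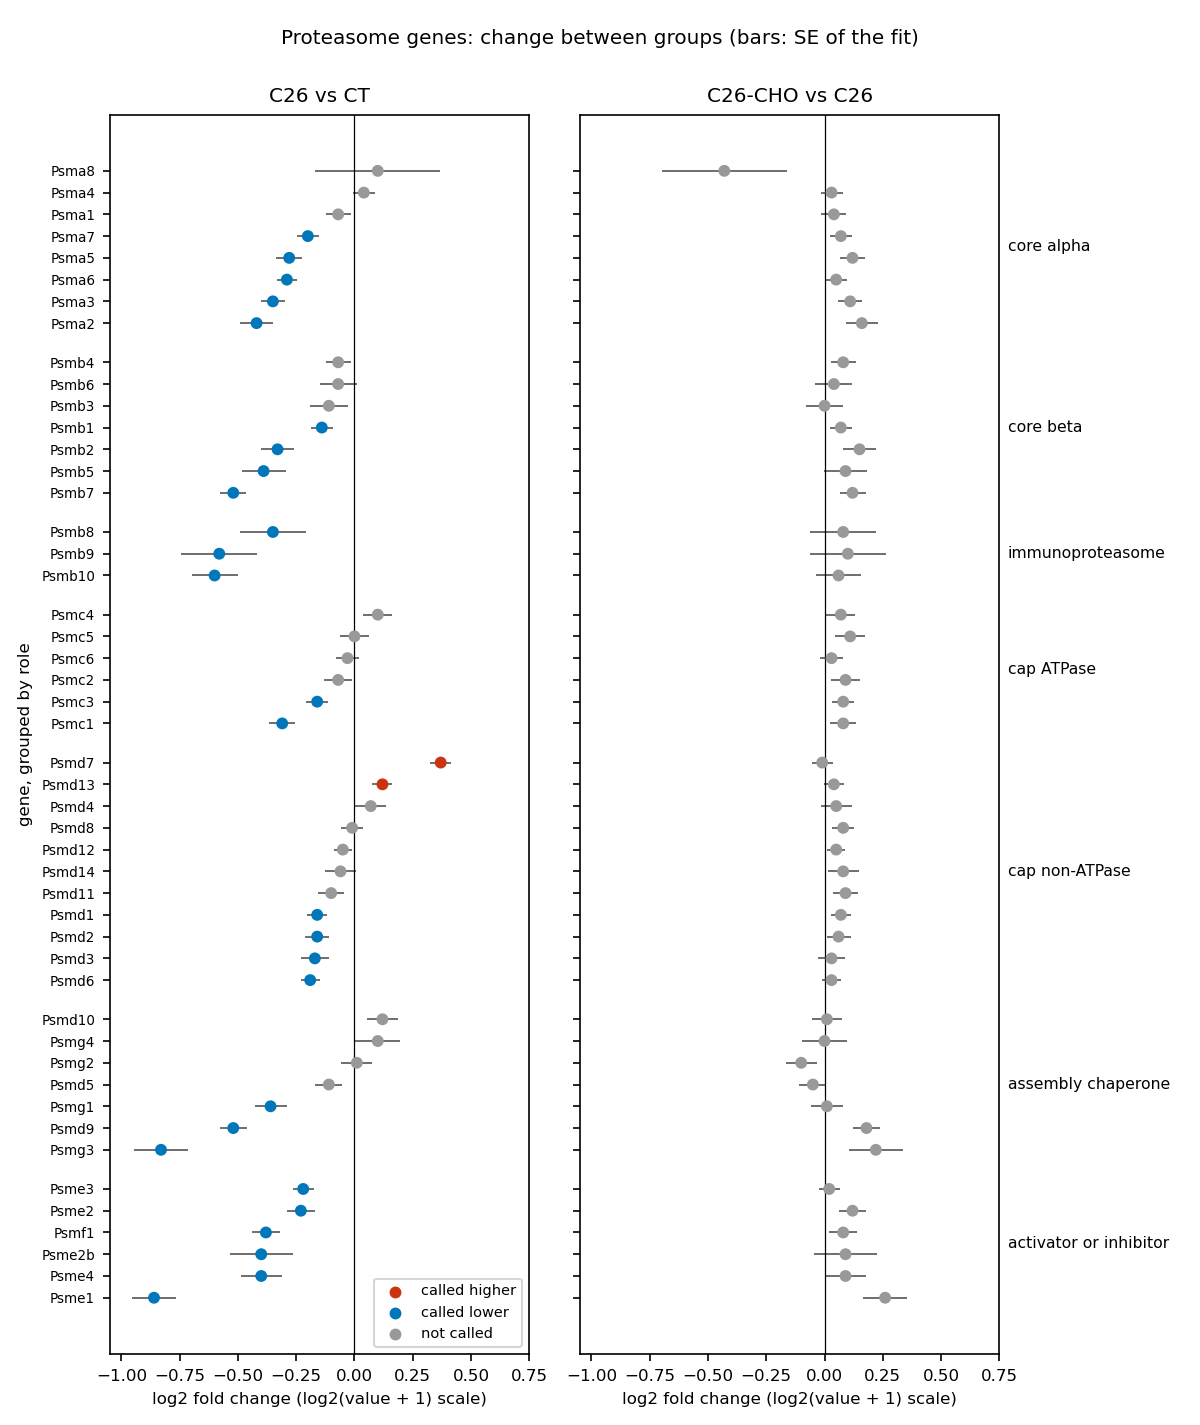
Log2 fold change of each of the 48 tested proteasome genes (points, with the SE of the limma fit as bars) in C26 against CT on the left and in C26-CHO against C26 on the right, grouped by role. On the left 27 genes are called lower (blue) and 2 higher (red), while on the right every gene is grey because none passed the threshold.

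The medians differed between roles, given here as a description with no test, and with the way libraries were scaled. The median log2 fold change in C26 against CT was -0.58 for the immunoproteasome subunits, -0.39 for the activators and the inhibitor, -0.24 for the alpha subunits, -0.14 for the standard beta subunits, -0.11 for the assembly chaperones, -0.06 for the non-ATPase cap subunits and -0.05 for the cap ATPases. In the core, 9 of 15 standard alpha and beta genes were lower and 0 higher. In the cap, 6 of 17 genes were lower and 2 higher. Under quantile normalization, which forces every library to the same distribution of values, 21 members were lower and 7 higher, and all 21 were among the 27. The median moved to -0.04 under that scaling, with all tested genes at -0.01. The immunoproteasome median stayed at -0.59, whereas the medians of the cap ATPases and the non-ATPase cap subunits became positive, at 0.04 and 0.05. Several of the smaller differences in the core and the cap therefore carry a direction only relative to the scaling. Others kept their sign and call under both scalings, such as Psmd6 (-0.19 and -0.10) and Psmd13 (0.12 and 0.21).

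**Figure D2:**
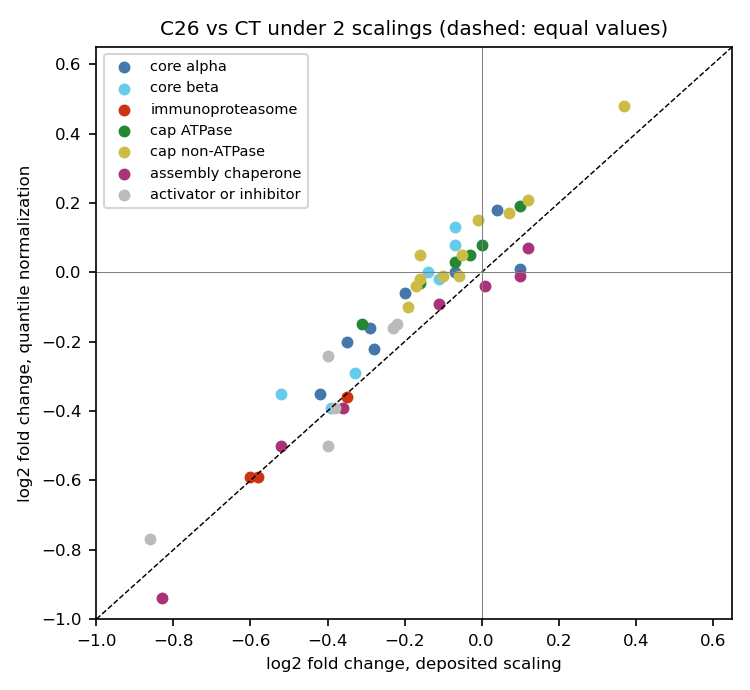
Log2 fold change in C26 against CT of each tested proteasome gene with the deposited scaling (horizontal axis) and after quantile normalization (vertical axis), coloured by role. Most core and cap genes lie above the dashed line of equal values, and the 3 immunoproteasome genes lie on it or next to it.

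All 3 immunoproteasome subunits were lower in the C26 livers. Psmb10 (ENSMUSG00000031897, chr8:105935735-105938444, minus strand) takes the place of Psmb7. Its normalized count was 565, 629 and 763 (lowest, median and highest, as in the lists of 3 values that follow) in CT, 332, 432 and 486 in C26, and 355, 428 and 610 in C26-CHO. Every C26 library lay below every CT library, and the log2 fold change in C26 against CT was -0.60 ± 0.0984 (SE; limma, adjusted p = 7.18e-06). Psmb9 (ENSMUSG00000096727, chr17:34181987-34187764, minus strand), which takes the place of Psmb6, gave 251, 468 and 623 in CT, 204, 301 and 405 in C26 and 266, 307 and 476 in C26-CHO. The groups overlapped through the low end of CT, with a log2 fold change of -0.58 ± 0.163 (SE; limma, adjusted p = 0.00308). Psmb8 (ENSMUSG00000024338, chr17:34197721-34201454, plus strand), which takes the place of Psmb5 and lies beside Psmb9 in the class II region, gave 318, 398 and 496 in CT, 210, 339 and 418 in C26 and 258, 328 and 430 in C26-CHO. Its log2 fold change was -0.35 ± 0.141 (SE; limma, adjusted p = 0.0343). That call was lost in edgeR's quasi-likelihood test (adjusted p = 0.0551) and when any of 8 of the 24 libraries was left out, with values from -0.40 to -0.26 and a highest limma adjusted p of 0.0903.

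**Figure D3:**
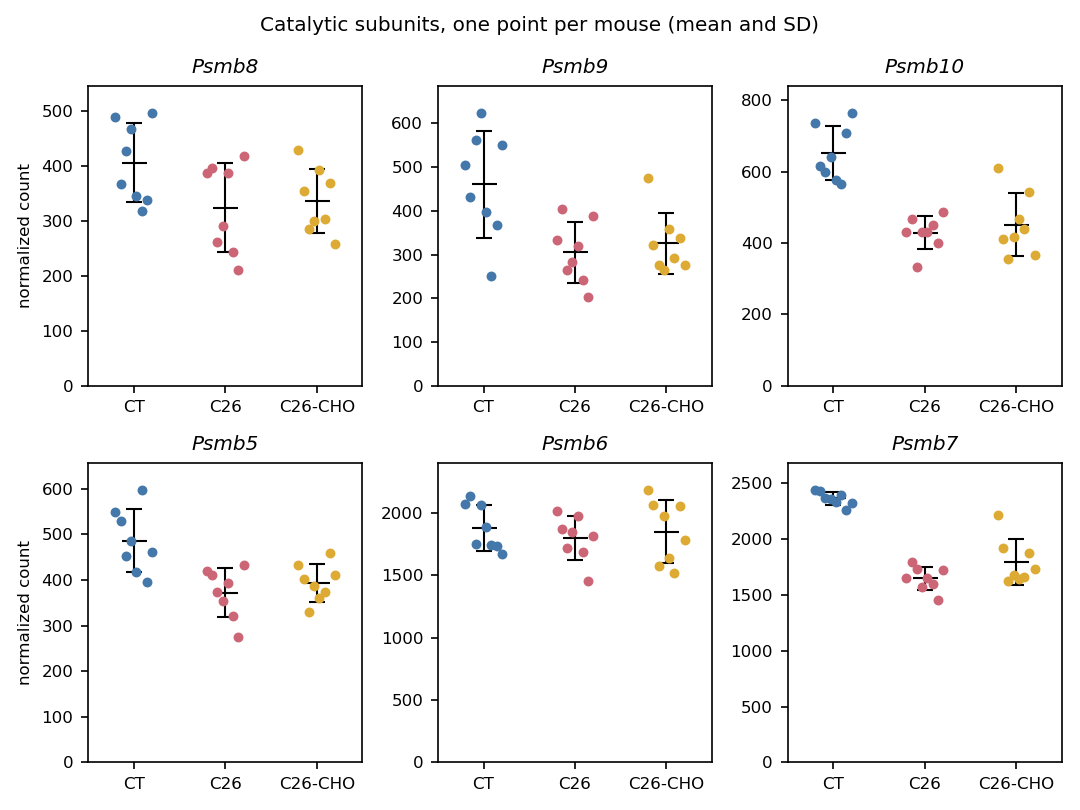
Normalized count of the inducible catalytic subunits (top row) and of the constitutive subunits that they replace (bottom row) in each of the 24 livers, with the group mean and SD in black. Psmb10 and Psmb7 separate CT from C26 with no shared range, Psmb6 did not pass the test, and the highest C26-CHO point of Psmb9 is C26-CHO 1 at 476.

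Because these genes are known interferon targets, the RefSeq promoters of the inducible subunits and of Psmb5 and Psmb6, from 250 bases before to 50 after the annotated start on GRCm38.p6, were searched on both strands for 4 short motifs. These were the gamma-activated site TTCNNNGAA, the interferon response element core (GAAA, any 2 bases, GAAA), the antioxidant response element core TGACNNNGC and the NF-Y box CCAAT. RefSeq promoters matched 41 of the 49 members. RefSeq starts can differ from the ends of the GENCODE genes given above. In the sequences that follow, printed 5′ to 3′ on the gene's strand, capitals mark a motif match. The windows are chr17:34197945-34198244 on the plus strand, chr17:34187281-34187580 on the minus strand, chr8:105938343-105938642 on the minus strand, chr14:54617946-54618245 on the minus strand and chr11:70525107-70525406 on the plus strand.
Psmb8: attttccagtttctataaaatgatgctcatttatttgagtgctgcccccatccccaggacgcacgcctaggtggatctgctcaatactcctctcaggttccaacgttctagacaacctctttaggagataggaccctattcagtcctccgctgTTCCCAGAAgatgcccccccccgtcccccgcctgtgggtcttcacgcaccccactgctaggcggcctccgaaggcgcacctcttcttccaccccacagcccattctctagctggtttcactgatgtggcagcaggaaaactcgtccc
Psmb9: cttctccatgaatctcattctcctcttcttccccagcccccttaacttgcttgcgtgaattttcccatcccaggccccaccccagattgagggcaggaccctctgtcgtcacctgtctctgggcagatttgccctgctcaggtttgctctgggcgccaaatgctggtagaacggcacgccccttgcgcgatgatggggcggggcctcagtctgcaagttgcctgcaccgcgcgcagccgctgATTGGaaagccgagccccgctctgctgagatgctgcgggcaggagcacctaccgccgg
Psmb10: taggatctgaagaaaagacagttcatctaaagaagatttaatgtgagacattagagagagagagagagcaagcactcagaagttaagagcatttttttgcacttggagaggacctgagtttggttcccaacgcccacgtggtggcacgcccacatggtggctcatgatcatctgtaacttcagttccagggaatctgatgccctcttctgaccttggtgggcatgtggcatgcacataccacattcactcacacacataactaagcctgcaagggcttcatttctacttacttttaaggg
Psmb5: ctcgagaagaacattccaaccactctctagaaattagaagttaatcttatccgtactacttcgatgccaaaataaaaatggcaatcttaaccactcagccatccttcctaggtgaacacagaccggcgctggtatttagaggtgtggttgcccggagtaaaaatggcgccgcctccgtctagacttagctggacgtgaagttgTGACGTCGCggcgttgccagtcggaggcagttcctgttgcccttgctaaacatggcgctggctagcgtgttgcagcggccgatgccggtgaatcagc
Psmb6: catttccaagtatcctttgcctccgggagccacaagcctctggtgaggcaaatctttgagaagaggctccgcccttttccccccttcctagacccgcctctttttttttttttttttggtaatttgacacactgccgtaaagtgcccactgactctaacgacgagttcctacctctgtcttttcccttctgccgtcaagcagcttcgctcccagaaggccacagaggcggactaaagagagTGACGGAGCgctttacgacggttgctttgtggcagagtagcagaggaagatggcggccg
The Psmb8 window holds a gamma-activated site, the Psmb9 window an NF-Y box, the Psmb10 window none of the 4 motifs, and the Psmb5 and Psmb6 windows an antioxidant response element core each. A gamma-activated site was found in 8.30% of 32851 mouse promoters of this length and in 3 of the 44 promoters of the members, those of Psmb8, Psmd2 and Psmg1. An antioxidant response element core was found in 12.4% of all promoters and in 6 of the 44, those of Psmb5, Psmb6, Psmc6, Psmd12, Psmd9 and Psme4. For the NF-Y box the shares were 37.4% and 14 of 44. No motif overlapped another in the printed windows, and a match is a run of letters and no evidence of binding.

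The constitutive counterparts did not move as one. Psmb7 gave 2258, 2366 and 2443 in CT, 1458, 1653 and 1800 in C26 and 1629, 1705 and 2221 in C26-CHO. No C26 library reached the CT range, and the mean in C26 was 0.697 times that in CT (log2 fold change -0.52 ± 0.0558, SE; limma, adjusted p = 7.43e-09). Psmb7 overlaps Nek6 on the opposite strand, whose mean was higher in C26 (1997) than in CT (815). Psmb5, the subunit that cleaves after hydrophobic residues, gave 395, 473 and 598 in CT, 274, 383 and 433 in C26 and 329, 394 and 459 in C26-CHO. It was lower in C26, with some overlap (log2 fold change -0.39 ± 0.0942, SE; limma, adjusted p = 0.000820). Psmb6 gave 1666, 1817 and 2134 in CT, 1456, 1827 and 2010 in C26 and 1520, 1873 and 2183 in C26-CHO. Its groups overlapped over most of their range (log2 fold change -0.07 ± 0.0799, SE; limma, adjusted p = 0.471).

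The ratio of an inducible subunit to the one that it replaces does not depend on a library's size factor, though quantile normalization would change it. The ratios are of normalized counts, not corrected for transcript length, so they compare groups and not the levels of the 2 genes. Within the CT libraries the Psmb9 to Psmb6 ratio ran from 14.4% to 33.1% with a median of 22.8%. In C26 it ran from 14% to 21.7% with a median of 15.8%, and in C26-CHO from 13.5% to 22% with a median of 17%. The mean log2 ratio in C26 was lower than in CT by a difference of -0.51 (exact two-sided permutation test, p = 0.0131, and 0.104 after Benjamini-Hochberg adjustment over 9 tests). In C26-CHO against CT the difference was -0.44 (p = 0.0232 and adjusted p = 0.104 by the same exact permutation test). Neither passed the adjustment, and both did without CT 6, the lowest CT library, at -0.61 and -0.55 (exact permutation test, adjusted p = 0.0133 for each). The Psmb8 to Psmb5 ratio had medians of 87.2% in CT, 87.4% in C26 and 84.0% in C26-CHO, with a difference in C26 against CT of 0.04 on the log2 scale (exact permutation test, adjusted p = 0.900). For Psmb10 to Psmb7 the medians were 26.2%, 26.8% and 25.6%, and the C26 against CT difference was -0.08 (exact permutation test, adjusted p = 0.880). The smallest p that 8 against 8 libraries allow is 0.000155.

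**Figure D4:**
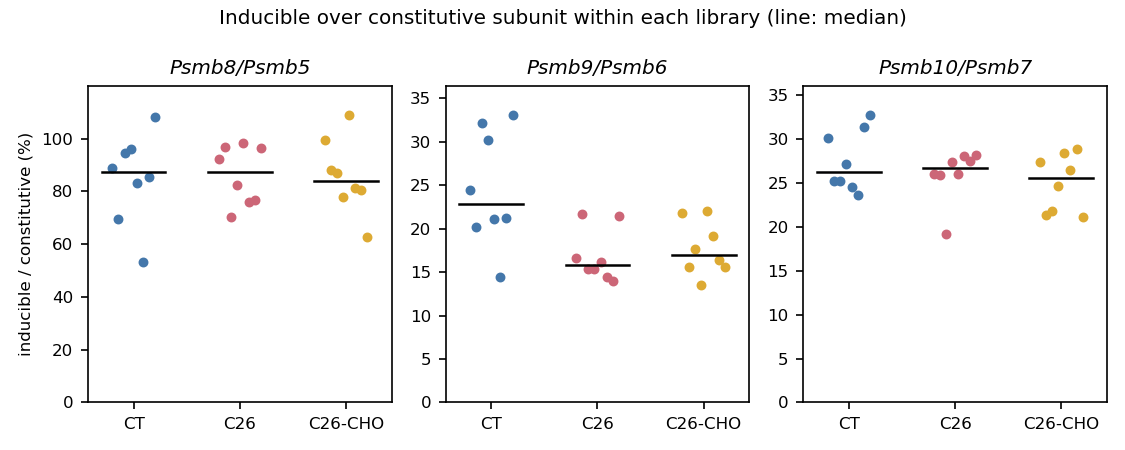
Normalized count of each inducible catalytic subunit as a percentage of the constitutive subunit it replaces, one point per library and a line at the group median. The Psmb9 to Psmb6 medians are 22.8% in CT, 15.8% in C26 and 17% in C26-CHO, with CT 6 as the low CT point at 14.4%.

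Among the alpha subunits, 5 of 8 were lower in C26 and 0 higher, with log2 fold changes from -0.42 to 0.10. Psma2 gave 1050, 1208 and 1244 in CT, 698, 881 and 1032 in C26 and 887, 948 and 1201 in C26-CHO. The C26 libraries lay entirely below CT (log2 fold change -0.42 ± 0.069, SE; limma, adjusted p = 7.98e-06). On the same strand Psma2 overlaps AW209491, whose mean was 251 in CT and 379 in C26, so the assignment of shared reads to one or the other is uncertain. Psma3 gave 2017, 2100 and 2426 in CT and 1535, 1713 and 1798 in C26, again with no overlap (log2 fold change -0.35 ± 0.0505, SE; limma, adjusted p = 9.45e-07). Psma5, Psma6 and Psma7 were lower by smaller steps, at -0.28, -0.29 and -0.20 on the log2 scale, and in each of them the C26 and CT ranges were apart. Psma1 and Psma4 did not pass (log2 fold changes -0.07 and 0.04). Psma8, an alpha subunit of the testis, was near the bottom of the table in liver, with a mean of 25.6 ± 11.9 in CT, 26.7 ± 10.6 in C26 and 19.4 ± 6.79 in C26-CHO (SD, n = 8 each).

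Of the 7 standard beta subunits, 4 were lower in C26 and 0 higher. Beside Psmb5 and Psmb7 these were Psmb1 and Psmb2, structural subunits of the ring that do not cut. Psmb2 gave 702, 789 and 842 in CT, 568, 633 and 689 in C26 and 597, 667 and 901 in C26-CHO (C26 against CT log2 fold change -0.33 ± 0.0692, SE; limma, adjusted p = 0.000141). Psmb1 differed by -0.14 ± 0.0479 (SE; limma, adjusted p = 0.0113), and its value was 0.00 under quantile normalization. Psmb3 and Psmb4 did not pass at -0.11 and -0.07, and Psmb4 was called higher by 0.13 after quantile normalization (limma, adjusted p = 0.0194).

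In the ATPase ring of the cap, which unfolds the substrate and threads it into the core, 2 of 6 genes were lower in C26 and 0 higher. Psmc1 gave 1997, 2197 and 2393 in CT, 1645, 1781 and 1856 in C26 and 1655, 1844 and 2241 in C26-CHO, and no C26 library reached CT (log2 fold change -0.31 ± 0.0563, SE; limma, adjusted p = 2.71e-05). Psmc3 was lower by a smaller step, -0.16 ± 0.0462 (SE; limma, adjusted p = 0.00318), which was -0.03 under quantile normalization and no longer called. The other 4, Psmc2, Psmc4, Psmc5 and Psmc6, lay between -0.07 and 0.10.

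The 11 non-ATPase cap subunits moved in both directions. Psmd7, a lid subunit that pairs with the deubiquitinase Psmd14, was the member with the largest rise. It gave 1125, 1238 and 1372 in CT, 1466, 1599 and 1731 in C26 and 1528, 1585 and 1736 in C26-CHO. Every tumour-bearing liver lay above every CT liver (C26 against CT log2 fold change 0.37 ± 0.0444, SE; limma, adjusted p = 4.60e-08). Psmd13, another lid subunit, rose by 0.12 ± 0.0428 on the log2 scale (SE; limma, adjusted p = 0.0161), from 1137, 1197 and 1278 in CT to 1222, 1335 and 1375 in C26. Psmd13 overlaps Sirt3 on the opposite strand, whose mean was 1820 in CT and 958 in C26. Lower in C26 were Psmd6 (-0.19; limma, adjusted p = 0.000214), Psmd3 (-0.17; limma, adjusted p = 0.0120), Psmd1 (-0.16; limma, adjusted p = 0.00250) and Psmd2 (-0.16; limma, adjusted p = 0.00715). Psmd1 and Psmd2 are the large scaffold proteins of the cap base. Under quantile normalization only Psmd6 of these 4 was still called lower, and Psmd2 stood at 0.05.

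The remaining 5 cap genes did not pass in C26 against CT. Psmd4, a ubiquitin receptor, gave 1163, 1325 and 1511 in CT and 1270, 1388 and 1499 in C26 (log2 fold change 0.07 ± 0.0664, SE; limma, adjusted p = 0.372). Psmd11, a lid subunit whose abundance has been tied to proteasome assembly in human stem cells, gave 1210, 1417 and 1539 in CT and 1148, 1289 and 1436 in C26 (log2 fold change -0.10 ± 0.0555, SE; limma, adjusted p = 0.119). Psmd14, which removes ubiquitin chains at the cap, differed by -0.06, Psmd12 by -0.05 and Psmd8 by -0.01. Psmd8 was called higher by 0.15 after quantile normalization (limma, adjusted p = 0.00783).

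All 6 activator and inhibitor genes were lower in C26, and Psme1 had the largest difference of any member. Psme1 (ENSMUSG00000022216, chr14:55578123-55581529, plus strand) and Psme2 encode the partner chains of an interferon-inducible ring that opens the core without ATP or ubiquitin. Psme1 gave 1362, 1528 and 1745 in CT, 753, 860 and 934 in C26 and 843, 954 and 1573 in C26-CHO. The C26 mean was 0.549 times the CT mean with no overlap (log2 fold change -0.86 ± 0.0942, SE; limma, adjusted p = 1.13e-08). Psme1 overlaps Emc9 on the opposite strand, whose mean fell from 334 in CT to 153 in C26 (log2 fold change -1.13; limma, adjusted p = 4.26e-10), and the strand setting of the counting is not given in the sources used here. The Psme1 promoter, chr14:55578244-55578543 on the plus strand, is shown because this gene moved most, with an interferon response element core on the minus strand in capitals.
Psme1: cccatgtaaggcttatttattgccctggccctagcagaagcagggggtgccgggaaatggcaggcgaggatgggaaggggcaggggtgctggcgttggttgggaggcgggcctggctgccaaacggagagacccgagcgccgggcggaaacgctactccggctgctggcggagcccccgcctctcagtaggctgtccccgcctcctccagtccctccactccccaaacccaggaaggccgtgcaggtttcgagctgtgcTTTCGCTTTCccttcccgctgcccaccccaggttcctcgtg
That core was found in 3.44% of the 32851 promoters and in 5 of the 44 promoters of the members, which equals 11.4%, those of Psmb3, Psmd4, Psmd9, Psme1 and Psmg4. Of these genes Psme1 and Psmd9 were lower in C26, and Psmb3, Psmd4 and Psmg4 did not pass.

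Psme2 did not fall as far as its partner. It gave 1005, 1098 and 1208 in CT, 764, 960 and 1022 in C26 and 942, 993 and 1173 in C26-CHO (C26 against CT log2 fold change -0.23 ± 0.0589, SE; limma, adjusted p = 0.00111). The log2 ratio of Psme1 to Psme2, looked at after their values were seen and so not tested, lay between 0.37 and 0.61 in CT, between -0.26 and -0.02 in C26 and between -0.17 and 0.42 in C26-CHO. Psme2b, a near copy of Psme2 that may share reads with it, was low and uncertain, at 77.1 ± 11 in CT and 58.2 ± 7.74 in C26 (SD, n = 8 each; limma, adjusted p = 0.0129). Psme3 encodes the related nuclear activator. It gave 1016, 1074 and 1188 in CT, 851, 946 and 986 in C26 and 858, 951 and 1009 in C26-CHO, with no overlap of C26 and CT (log2 fold change -0.22 ± 0.0453, SE; limma, adjusted p = 0.000147). Psme4, a large single-chain activator, gave 1783, 2268 and 2951 in CT, 1446, 1730 and 1988 in C26 and 1553, 1841 and 1914 in C26-CHO (C26 against CT log2 fold change -0.40 ± 0.0887, SE; limma, adjusted p = 0.000306). Psmf1, first described as an inhibitor of the core, gave 454, 476 and 586 in CT, 356, 375 and 427 in C26 and 369, 396 and 478 in C26-CHO. It fell with no overlap of C26 and CT (log2 fold change -0.38 ± 0.0608, SE; limma, adjusted p = 4.97e-06).

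**Figure D5:**
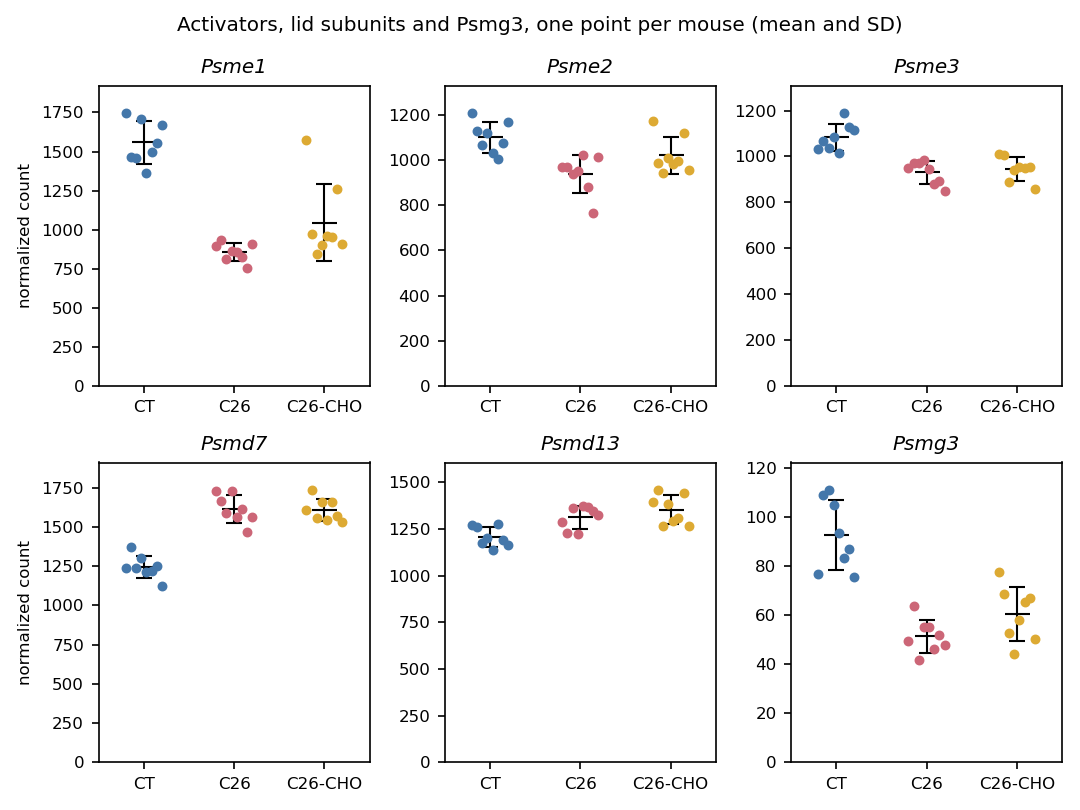
Normalized count of Psme1, Psme2 and Psme3 (top row) and of the lid subunits Psmd7 and Psmd13 and the core chaperone Psmg3 (bottom row) in each of the 24 livers, with the group mean and SD in black. Psme1 and Psmg3 are lower and Psmd7 is higher in every C26 liver than in any CT liver, and the highest C26-CHO point of Psme1, 1573, is C26-CHO 1.

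Of the 7 assembly chaperones, 3 were lower in C26 and 0 higher. Psmg1 to Psmg4 help the alpha ring to form, and Psmd5, Psmd9 and Psmd10 hold modules of the cap base until they join. Psmg3 gave 75.4, 90.3 and 111 in CT, 41.8, 50.7 and 63.8 in C26 and 44.2, 61.7 and 77.5 in C26-CHO, with C26 wholly below CT (log2 fold change -0.83 ± 0.116, SE; limma, adjusted p = 6.10e-07). Psmd9 gave 600, 668 and 757 in CT, 413, 464 and 506 in C26 and 454, 533 and 567 in C26-CHO, again with no overlap of CT with either tumour group (C26 against CT log2 fold change -0.52 ± 0.0576, SE; limma, adjusted p = 1.22e-08). Psmd9 overlaps Hpd, an abundant gene of tyrosine breakdown on the opposite strand, whose mean fell from 42617 in CT to 18823 in C26 (log2 fold change -1.18; limma, adjusted p = 3.95e-10). The overlap is one of annotated gene spans. Whether any reads of these 2 genes were shared was not determined, and the strand setting of the counting is not given. Psmg1 gave 295, 355 and 394 in CT, 251, 272 and 329 in C26 and 240, 281 and 318 in C26-CHO (C26 against CT log2 fold change -0.36 ± 0.0685, SE; limma, adjusted p = 4.83e-05). Psmg2, Psmg4, Psmd5 and Psmd10 did not pass, with log2 fold changes of 0.01, 0.10, -0.11 and 0.12.

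Cholestyramine feeding of tumour-bearing mice gave no called change in any member. In C26-CHO against C26, limma called 0 of 48 members higher and 0 lower, beside 0.556% of all tested genes higher and 0.150% lower. Of the 48, 8 reached an unadjusted p under 0.05, as did 13% of all tested genes. The count tests on recovered reads, which hold 22 of the 24 libraries, called 1 member each, Psme1, higher (edgeR quasi-likelihood test, log2 fold change 0.37, adjusted p = 0.0365; DESeq2, log2 fold change 0.37, adjusted p = 0.0150). The libraries left out, C26-CHO 3 and C26-CHO 4, held the lowest Psme1 counts of their group, 843 and 902, while C26-CHO 1 at 1573 stayed in. Of all tested genes the count tests called 2.51% and 3.68% higher, so 1 of 48 is not above that background. The members' median log2 difference was 0.07 beside 0.00 for all genes, and 42 of the 48 differences were positive. The share of positive differences over all tested genes was not determined, so this count has no background beside it. Without C26-CHO 1 the members' median was 0.05. Under quantile normalization of all 24 libraries it was 0.03, beside -0.01 for all genes, so the size of this shift depends on the scaling.

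The members with the smallest p in this comparison were Psmd9, Psme1 and Psma2. Psmd9 differed by 0.18 ± 0.0576 (SE; limma, adjusted p = 0.154), and 7 of 8 C26-CHO libraries lay above the C26 mean. Psme1 differed by 0.26 ± 0.0942 (SE; limma, adjusted p = 0.198) and by 0.17 without C26-CHO 1 (limma, adjusted p = 0.365). Psma2 differed by 0.16 ± 0.069 (SE; limma, adjusted p = 0.316), with 8 of 8 C26-CHO libraries above the C26 mean. For the immunoproteasome the differences and their 95% intervals were 0.08 (-0.21 to 0.37) for Psmb8, 0.10 (-0.23 to 0.44) for Psmb9 and 0.06 (-0.14 to 0.26) for Psmb10, on the log2 scale. Those intervals leave room for a difference of either sign. Without C26-CHO 1 the 3 values were 0.02, 0.02 and -0.01.

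C26-CHO 1, the library that stood apart on the first principal component, was the highest of its group in 31 of the 48 tested members and the lowest in 0. Its Psme1 count of 1573 lay inside the CT range, while the other 7 C26-CHO libraries had a mean of 970 ± 135 (SD, n = 7) and a highest value of 1260. Its Psmb7 count was 2221 beside a mean of 1734 ± 118 in the other 7, and its Psmb9 count was 476 beside 304 ± 35.2 (SD, n = 7 for each). C26-CHO 1 therefore pulled the group means of these genes toward CT.

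Against the sham-injected mice, the cholestyramine-fed tumour-bearing mice showed 21 members lower and 3 higher, beside 30.9% of all tested genes lower and 31.3% higher. This comparison shares the CT libraries with the one of C26 against CT and is no independent repeat of it. The median was -0.12, beside 0.00 for all tested genes. Lower were 5 alpha, 3 standard beta, 2 immunoproteasome, 1 ATPase, 2 non-ATPase, 4 activator or inhibitor and 4 chaperone genes. Psmd7, Psmd13 and the ATPase Psmc4 were higher, with log2 fold changes of 0.37, 0.16 and 0.16 (limma, adjusted p = 7.99e-08, 0.00210 and 0.0248). The Psmc4 call was lost in DESeq2 (adjusted p = 0.0511), in limma on 22 libraries (adjusted p = 0.0579) and when any of 6 libraries was left out, with values from 0.14 to 0.20 and a highest limma adjusted p of 0.0592. Psmb10 differed by -0.54 and Psmb9 by -0.47 (limma, adjusted p = 3.45e-05 and 0.0139; for Psmb9 0.0616 on 22 libraries), and Psmb8 by -0.27 did not pass (limma, adjusted p = 0.101). Without C26-CHO 1 the count of lower members was 26, with 3 higher.

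Levels can be compared between genes only per length. Per kilobase of the principal transcript, Psmb6 was the most abundant member in CT with 2356 normalized counts, followed by Psma7 with 2059 and by Psmb4 and Psmb7 with 2039 each. Psme1 ranked 8 with 1401 in CT and stood at 770 in C26. The inducible subunits were far down the order in CT, with 496 for Psmb10 (rank 31), 341 for Psmb9 (rank 37) and 249 for Psmb8 (rank 40), beside 541 for Psmb5 (rank 29). In C26 the same quantity was 327, 226 and 199 for Psmb10, Psmb9 and Psmb8 and 414 for Psmb5.

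The inducible subunits varied more between mice of one group than the median member of any other role. Their median coefficient of variation was 17.8% in CT, 23% in C26 and 19.4% in C26-CHO, while the medians of the other 6 roles lay between 4.92% and 11.4%. Single genes of other roles reached or passed the inducible subunits, among them the low-count Psma8 with 46.3% in CT and Psme1 with 23.6% in C26-CHO. Psmb8 and Psmb9 rose and fell together among mice of one group. Over the 8 mice of a group Pearson's r was 0.87 in CT, 0.96 in C26 and 0.91 in C26-CHO (exact permutation tests, adjusted p = 0.00816, 0.00134 and 0.00455 over 18 relations), with Spearman's rho of 0.81, 0.98 and 0.90 (adjusted p = 0.0559, 0.00714 and 0.0205 by exact permutation). It stayed at 0.88, 0.90 and 0.96 without the 2 mice farthest from the median.

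Other pairs were tied less closely. Psmb9 and the peptide transporter gene Tap1, which overlaps it on the opposite strand, gave r of 0.95 in CT, 0.75 in C26 and 0.81 in C26-CHO (exact permutation tests, adjusted p = 0.00455, 0.0437 and 0.0211). The C26-CHO value of r dropped to 0.32 without 2 mice. Spearman's rho was 0.88, 0.79 and 0.67 (exact permutation tests, adjusted p = 0.0217, 0.0559 and 0.107). For Psmb9 and Psmb10 r was 0.45, 0.55 and 0.86 (exact permutation tests, adjusted p = 0.267, 0.161 and 0.00987). Their rho was 0.40, 0.60 and 0.79 (exact permutation tests, adjusted p = 0.327, 0.14 and 0.0559). For Psmb8 and Psmb10 r was 0.64, 0.55 and 0.87 (exact permutation tests, adjusted p = 0.117, 0.161 and 0.00987). Their rho was 0.74, 0.62 and 0.88 (exact permutation tests, adjusted p = 0.0825, 0.129 and 0.0217). Psme1 and Psme2 gave r of 0.76, 0.82 and 0.97 (exact permutation tests, adjusted p = 0.0437, 0.0224 and 0.00647), with r of 0.54, 0.64 and 0.61 without 2 mice. Their rho of 0.69, 0.67 and 0.69 did not pass in any group (exact permutation tests, adjusted p = 0.104, 0.107 and 0.104). All of these share the library's scaling.

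Proteasome partners that carry other names were also lower in C26. Of 9 such genes tested, 8 were lower and 0 higher, with a median log2 fold change of -0.43. Uchl5, a deubiquitinase of the cap, gave 309, 328 and 353 in CT and 172, 190 and 207 in C26 (log2 fold change -0.80 ± 0.0562, SE; limma, adjusted p = 3.78e-12). Usp14, another deubiquitinase that binds the cap, differed by -0.57 (limma, adjusted p = 5.04e-10), and the cap-bound thioredoxin-like Txnl1 by -0.51 (limma, adjusted p = 1.30e-08). Pomp, the chaperone that matures the core, gave 1440, 1655 and 1791 in CT and 999, 1264 and 1310 in C26 (log2 fold change -0.43 ± 0.0722, SE; limma, adjusted p = 9.86e-06). Ube3c, a ubiquitin ligase of the proteasome, stood at -0.33 (limma, adjusted p = 3.45e-07). In none of these 5 genes did C26 and CT overlap, again with no share of all tested genes to set beside it.

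The ubiquitin supply and the shuttles moved both ways. Of 7 ubiquitin and E1 enzyme genes, 2 were higher and 2 lower. The polyubiquitin gene Ubb gave 14544, 15659 and 17687 in CT and 27370, 31499 and 33628 in C26 (log2 fold change 0.96; limma, adjusted p = 7.80e-13). Rps27a, a fusion of ubiquitin and a ribosomal protein, was higher by 0.22 (limma, adjusted p = 0.000562), and the E1 enzyme Uba1 stood at -0.22 (limma, adjusted p = 0.00162), or at 0.00 under quantile normalization. Of 12 shuttle and unfoldase genes, 3 were higher and 7 lower. Ubqln4, a shuttle for ubiquitinated proteins, differed by -0.35 (limma, adjusted p = 3.81e-05), while Faf2, which works with the unfoldase Vcp at the endoplasmic reticulum, differed by 0.56 (limma, adjusted p = 1.36e-10) and the protease Ddi2 by 0.46 (limma, adjusted p = 3.75e-06).

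Of 14 regulators of proteasome genes, 6 were higher and 6 lower in C26. Nfe2l1, which drives proteasome genes when proteasome activity falls and which Ddi2 cleaves to its active form, gave 2132, 2457 and 3020 in CT and 3295, 3485 and 3791 in C26 (log2 fold change 0.50; limma, adjusted p = 1.40e-07). Stat3, the mediator of the acute-phase response, was higher by 1.73 (limma, adjusted p = 7.67e-18). Nfe2l2, the oxidative stress regulator, differed by -0.89, Foxo3 by -1.11 and Foxo4 by -0.58 (limma, adjusted p = 7.98e-11, 5.07e-10 and 1.18e-10). Of 7 tested ubiquitin ligases tied to muscle atrophy, 2 were lower and 0 higher, Fbxo21 by -1.72 and Nedd4 by -0.16 (limma, adjusted p = 1.18e-08 and 0.0166); Nedd4 stood at 0.11 under quantile normalization. Trim63 and Fbxo40 missed the filter.

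Genes of peptide loading, of the interferon gamma response and of autophagy moved both ways. Of 12 peptide loading and class I genes, 6 were higher and 1 lower in C26, with a median of 0.15. Calr, Pdia3 and H2-D1 were higher by 1.30, 1.00 and 0.50 (limma, adjusted p = 5.86e-12, 3.88e-11 and 1.08e-07), and B2m was lower at -0.46 (limma, adjusted p = 3.94e-06). Nlrc5, the activator of class I genes, stood at 0.23 (limma, adjusted p = 0.0443, and 0.0561 with no filter on low values; the call was also lost when any of 10 of the 24 libraries was left out, with a highest adjusted p of 0.107), and Tap1 at -0.14 did not pass (limma, adjusted p = 0.4). Of 17 interferon gamma regulators and targets, 8 were higher and 7 lower. The signal inhibitor Socs1 rose from 4.87, 10.6 and 15.5 to 355, 388 and 661 (log2 fold change 5.24; limma, adjusted p = 5.00e-14). Stat2 and Jak1 were higher by 0.69 and 0.54 (limma, adjusted p = 1.40e-10 and 6.21e-09), and Irf1 at 0.16 did not pass (limma, adjusted p = 0.288). Of 16 autophagy and lysosome genes, 4 were higher and 8 lower, with Gabarapl1 at -1.48, Map1lc3b at 1.41, Ctsl at 1.5 and Wipi1 at 0.71 (limma, adjusted p = 4.77e-14, 1.80e-12, 4.37e-12 and 3.68e-11). In C26-CHO against C26 limma called 0 genes of these 8 lists.

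Of the 9 hepatocyte markers, 3 were higher and 4 lower in C26 against CT, with log2 fold changes from -2.52 to 3.55. Markers of other cell types also differed between CT and C26, and immune cells are a known source of Psmb8, Psmb9, Psmb10 and Psme1 mRNA. Of 12 macrophage and Kupffer cell markers, 10 were higher and 0 lower in C26, and their summed normalized count ran from 6347 to 9053 in CT and from 11068 to 14140 in C26. All 4 tested neutrophil markers were higher, with sums over 10 genes of 40.8 to 81.0 in CT and 264 to 876 in C26. T and NK cell markers summed to 67.0 to 207 in CT and 20.7 to 64.4 in C26, and both that could be tested, Cd4 and Gzma, were lower. Cd3d, Cd3e, Cd3g, Cd8a and Nkg7 each had a mean below 10 in all 3 groups. Of 4 tested B and plasma cell markers 3 were lower, with sums of 52.6 to 154 in CT and 37.9 to 93.8 in C26. The dendritic cell list, which includes the class II genes H2-Aa and Cd74, summed to 919 to 3143 in CT and 427 to 923 in C26, with 2 of 4 tested genes lower and 1 higher. Of 6 pan-leukocyte markers 3 were higher and 0 lower, with sums of 626 to 1253 in CT and 1251 to 1724 in C26. The part of these cell types in the immunoproteasome and activator differences was not tested.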

How the data were processed

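Liver RNA-seq libraries of 24 mice were grouped as CT, C26 and C26-CHO by the labels, 8 each. Per the submitters' processing notes, the authors used bcl2fastq 2.17, FastQC, Trimmomatic 0.38, STAR 2.6.1d with GRCm38 and DESeq2 1.22.2, so that the deposited signal is a read count per Ensembl gene divided by a library size factor. The counting tool, its annotation and its strand setting were not given in the sources used here. Symbols came from GENCODE M21, and 433 of 22392 identifiers, with 0.135% of the reads, had none.

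The deposited values were tested with limma 3.58.1 (R 4.3.3, moderated with a trend) on log2(value + 1), for genes with a mean of at least 10, in 1 fit over 24 libraries with no covariate. P-values were adjusted by Benjamini-Hochberg over all 14040 genes within a comparison, with a threshold of 0.05. Fold changes on this scale understate those of low genes. In all 24 libraries the values came out as whole reads (100% within 0.001 of a read). A separate check of the unit accepted these reads in 22 libraries, and edgeR 4.0.16 and DESeq2 1.42.0 were run on them as alternatives. C26-CHO 3 and C26-CHO 4 did not pass that check and stayed out of those tests. EdgeR called 9273, 535 and 8184 genes in C26 against CT, C26-CHO against C26 and C26-CHO against CT. Limma called 9305, 99 and 8739 on all 24 libraries, and 9254, 486 and 8124 on the 22 libraries that edgeR used. The fit was tested on simulated data.

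Within a library, log2 ratios of inducible to constitutive subunits were compared by exact permutation. Promoters came from RefSeq (GRCm38.p6). No group held libraries that agreed within sampling noise. The members and gene lists were chosen with earlier results of these data known. Named in full were the catalytic subunits, the activators, Psmf1, Psmd4 and Psmd11, the extremes of each role, the 3 smallest p in C26-CHO against C26, and from each list up to 4 genes with the smallest p in C26 against CT, besides Nfe2l1, Pomp, Usp14, Irf1, Nlrc5 and Tap1. A few genes that this rule covers are not reported here. Alternatives were the pseudocount, the filter, quantile and TMM scaling, the test, the groups in the fit, a replicate block and leaving out each library.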

Additional observations from a re-analysis of the deposited data

Results flagged for a closer look

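In 144 combinations of a tested member and a group of 8 libraries, 8 had a highest library far from the rest, judged by Dixon's gap criterion at the 95% level. Chance alone gives about 1 in 20 such combinations. Of the 8, 5 came from C26-CHO 1, which also stood apart on the first principal component. In that library Psma3 was 2169 (next 1841), Psma6 1837 (next 1635), Psmd6 1298 (next 1192), Psmf1 478 (next 420) and Psmb9 476 (next 359). In each of these genes the value lay nearer to the CT median than the next library did. The other 3 were spread over the groups, with Psmb4 in CT 6 at 2618 (next 2454), Psmg1 in C26 2 at 329 (next 281) and Psmg4 in C26-CHO 2 at 149 (next 128).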

How the results depend on the processing

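In C26 against CT, 20 members were lower and 2, Psmd7 and Psmd13, higher in each of 36 settings, and in C26-CHO against CT 15 were lower and the same 2 higher. Quantile normalization moved the most: 7 members were higher in C26 against CT and 8 in C26-CHO against CT, and signs turned for Psmb4 (0.13), Psmd8 (0.15), Psmd2 (0.05), Psmb1 (0.00), Uba1 (0.00) and Nedd4 (0.11). In C26-CHO against C26 edgeR and DESeq2 called 1 member higher each, Psme1; limma on the same 22 libraries, a setting chosen after seeing the data, called 0 higher and 0 lower. Of 5037 values of single members, 130 changed sign with no call in either setting; the cause of these shifts was not tested. The Psmb9 to Psmb6 difference ran from -0.61 to -0.44 in C26 against CT and from -0.55 to -0.37 in C26-CHO against CT when 1 library was left out. Leaving out 1 library gave 26 to 28 lower and 2 to 3 higher members in C26 against CT, and 19 to 26 lower and 2 to 4 higher in C26-CHO against CT, with 26 lower without C26-CHO 1. Same-numbered libraries deviated together weakly at most, with r from -0.20 to 0.25 and 9 of 24 pairs above 0.1. Of the libraries, 5 correlated best with their own number. Correlations this weak cannot decide whether the numbers pair the mice. With the replicate block, 27 members were lower and 2 higher in C26 against CT, 0 and 0 in C26-CHO against C26, and 21 and 3 in C26-CHO against CT. Of all tested genes the block gave 9643, 97 and 9079 calls in these comparisons, beside 9305, 99 and 8739 without it. Low counts limit Psma8, Psme2b, Psmg3 and Psmc3ip.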
